A study of Mus musculus with 12 samples.

Results

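Genes that mark the blood vessel lining of the brain were followed through cortex RNA of TAU58/2 mice and non-transgenic controls: Cldn5, Cdh5, Pecam1, Flt1, Tek, Slc2a1, Mfsd2a, Abcb1a, Slco1a4 and Ly6c1. The 10 genes were set by name, with no threshold on their values, and all 10 were found among the 48526 genes of the deposited tables. None of the 8 that could be tested passed in any of the 5 comparisons made, between genotypes or between ages. Of these 8, Mfsd2a, Pecam1 and Slc2a1 had the smallest spread and were above 0 in every library, whereas Cldn5, Flt1, Cdh5 and Abcb1a, and the untested Tek, were listed at or near 0 in some libraries and higher in others of the same group.

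TAU58/2 mice express a human tau transgene bearing P301S, a change found in families with frontotemporal dementia, under the mouse Thy1.2 promoter, which is active in neurons. The mice were on a pure C57Bl/6J background and received no treatment, and the controls were non-transgenic. Both genotypes were taken at ages of 3 and 10 months with 3 biological replicates each, which gave 4 groups and 12 libraries of ribosomal RNA-depleted total RNA. The values are FPKM, fragments scaled by transcript length and by the mapped fragments of the library, so that levels of different genes can be set side by side per length. Read counts were not among the data used here, so the depth behind a value is unknown and no counting interval is given.

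Brain endothelial cells form the blood-brain barrier. Tight junctions seal the clefts between neighbouring cells, transporters in the membrane carry glucose and selected lipids inwards and return drugs and other foreign molecules to the blood, and few vesicles cross the cell. Signals from VEGF and angiopoietins, received by tyrosine kinase receptors, control the growth and stability of these vessels, and pericytes and astrocyte endfeet cover them from outside.

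The labels were checked first on mouse Mapt and Thy1. At 3 months the 3 libraries labelled TAU58/2 held 43.3 to 47.6 FPKM of Mapt and those labelled control 6.64 to 12.0 FPKM. At 10 months the TAU58/2 label went with 42.6, 12.4 and 3.31 FPKM of Mapt and the control label with 42.7, 8.13 and 9.08 FPKM, so Mapt did not follow the labels. Thy1 was at 410 to 441 FPKM in the 3-month libraries labelled TAU58/2 and at 105 to 140 FPKM in their controls. At 10 months Thy1 was at 172, 114 and 159 FPKM under the TAU58/2 label and at 115, 314 and 176 FPKM under the control label, so it did not separate them either. The groups are therefore named by their labels below. The first 10-month library labelled TAU58/2 held 11228 FPKM of the growth hormone gene Gh and 1482 FPKM of the prolactin gene Prl, both pituitary genes, against at most 37.4 and 10.0 FPKM elsewhere. Neuron markers were present in every library, with a summed level of 595 to 1202 FPKM over 8 genes. In bulk tissue fewer endothelial cells and less RNA per endothelial cell cannot be told apart.

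**Figure D1:**
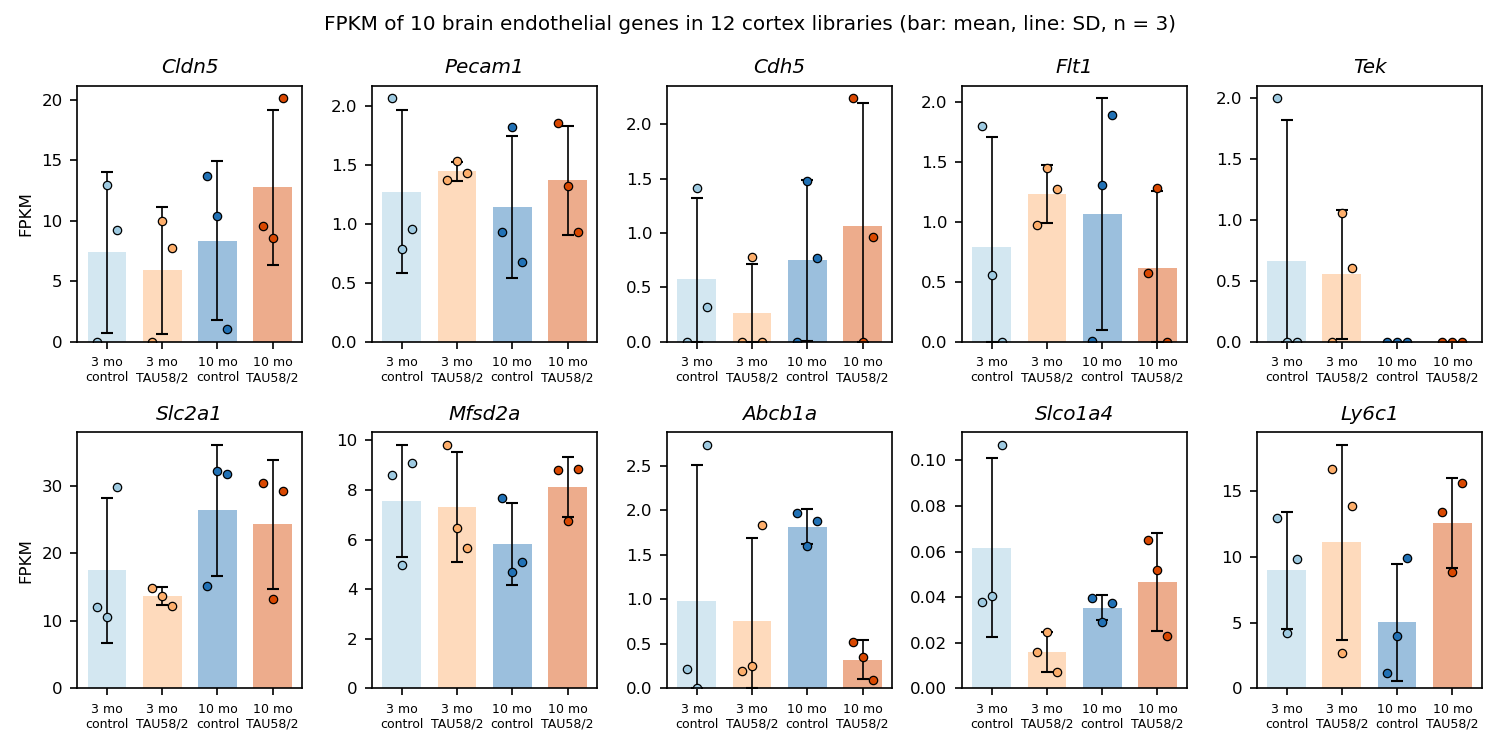
FPKM (vertical axis, starting at 0, a separate scale for each gene) of the 10 endothelial genes in the 4 groups; points are single libraries, bars the mean of 3 and lines 1 SD, cut off at 0. Values within a group are widely spread for Cldn5, Flt1, Cdh5 and Tek, and Abcb1a at 10 months has its 3 TAU58/2 points (0.0918 to 0.522) below its 3 control points (1.59 to 1.97).

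Levels were ordered first. Slc2a1 had the highest mean over the 12 libraries at 20.4 FPKM, followed by Ly6c1 at 9.43, Cldn5 at 8.60 and Mfsd2a at 7.20 FPKM. Pecam1 followed at 1.31 FPKM, and Abcb1a, Flt1 and Cdh5 at 0.971, 0.928 and 0.664 FPKM. Tek had a mean of 0.305 FPKM and Slco1a4 one of 0.0399 FPKM. The ranges of Ly6c1 (1.19 to 16.7), Cldn5 (0 to 20.1) and Mfsd2a (4.68 to 9.82) overlapped, as did those of Pecam1, Abcb1a, Flt1 and Cdh5. The ranges alone therefore do not order neighbours within these runs. Slc2a1, at 10.6 to 32.2 FPKM, was above Mfsd2a in all 12 libraries, since its lowest value exceeded the highest of Mfsd2a.

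A gene was tested where its mean reached 1 FPKM in at least 1 of the 4 groups, and 8 of the 10 were. Slco1a4 and Tek stayed below that level. Cldn5, Pecam1, Ly6c1, Slc2a1 and Mfsd2a reached it in all 4 groups and Flt1 in 2. Abcb1a reached it only in the 10-month controls and Cdh5 only in the 10-month libraries labelled TAU58/2, so their entry depended on the group in which they were high. Differences are on the log2(FPKM + 0.1) scale, labelled TAU58/2 minus control, from limma, a linear model over all 9846 tested genes with Benjamini-Hochberg adjustment and a threshold of 0.05. This scale understates changes of low genes.

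At 10 months 0 of the 8 tested genes passed, where 0.0102% of all tested genes did (1 gene). No member was below an unadjusted p of 0.05, and 433 of all tested genes were. Of the 8, 5 were higher and 3 lower by point estimate, with a median log2 difference of 0.29 against 0.01 over all tested genes. At 3 months 0 of the 8 passed, where 0.0406% of all tested genes did, and the split was 4 higher and 4 lower with a median of 0.02. No member was below an unadjusted p of 0.05 at 3 months either, and 334 of all tested genes were. All limma adjusted p values of the 8 lay between 0.969 and 1 at 10 months and were 1 at 3 months. In the authors' deposited table the lowest q-value of the 10 genes was 0.577 at 10 months and 0.671 at 3 months.

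Cldn5 encodes claudin-5, the main claudin of the tight junctions between brain endothelial cells (ENSMUSG00000041378, GRCm38 chromosome 16, 18776847 to 18778262, plus strand, 1 annotated transcript). At 10 months it was at 9.60, 8.54 and 20.1 FPKM in libraries labelled TAU58/2 and at 13.7, 10.4 and 1.03 FPKM in the controls. The 3-month values were 0, 9.95 and 7.74 FPKM in libraries labelled TAU58/2 and at 0, 12.9 and 9.24 FPKM in the controls. Each 3-month group thus had 1 library in which Cldn5 was listed at 0 beside 2 with clear expression, and the groups overlapped at both ages. The log2 difference was 1.12 (SE 2.13) at 10 months and -0.21 (SE 2.13) at 3 months, and its 95% interval at 10 months ran from -3.63 to 5.88. Without the third 10-month control library the 10-month difference was -0.013.

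Cdh5 encodes VE-cadherin, the adhesion molecule of endothelial adherens junctions (ENSMUSG00000031871, chromosome 8, 104101625 to 104144511, plus strand, 2 transcripts). It was at 2.24, 0 and 0.966 FPKM in the 10-month libraries labelled TAU58/2 and at 0, 1.48 and 0.769 FPKM in their controls. At 3 months the values were 0, 0.782 and 0 FPKM against 0, 1.42 and 0.316 FPKM in the controls. A value of 0 was listed in 5 of the 12 libraries, at least once in every group, and the highest value was in the library that held the pituitary transcripts. The log2 difference was 0.29 (SE 1.61) at 10 months and -0.95 (SE 1.61) at 3 months. The authors' deposited table lists a log2 fold change of -0.60 with p = 0.00206 and a q-value of 0.671 for Cdh5 at 3 months; in the limma fit its unadjusted p was 0.570.

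Pecam1 encodes CD31, an adhesion molecule of endothelial cell contacts that platelets and leukocytes also carry (ENSMUSG00000020717, chromosome 11, 106654217 to 106750628, minus strand, 8 transcripts). In the 10-month libraries labelled TAU58/2 it was at 1.86, 1.32 and 0.935 FPKM, and in the controls at 0.929, 1.83 and 0.678 FPKM. In the 3-month libraries labelled TAU58/2 it was at 1.37, 1.54 and 1.43 FPKM, and in the controls at 2.07, 0.792 and 0.962 FPKM. It was never listed at 0, and the genotypes overlapped at both ages. The log2 difference was 0.30 (SE 0.52, 95% interval -0.85 to 1.45) at 10 months and 0.28 (SE 0.52, interval -0.87 to 1.43) at 3 months.

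Flt1 encodes VEGF receptor 1, which binds VEGF-A and, as a soluble form, acts as a decoy for it (ENSMUSG00000029648, chromosome 5, 147561604 to 147726011, minus strand, 6 transcripts). It was at 0.571, 1.28 and 0 FPKM in the 10-month libraries labelled TAU58/2 and at 0.00329, 1.31 and 1.89 FPKM in the controls. At 3 months the values were 0.976, 1.45 and 1.28 FPKM against 1.81, 0.559 and 0 FPKM in the controls. The 3-month libraries labelled TAU58/2 lay close together, inside the range of their controls. The log2 difference was -0.55 (SE 1.45) at 10 months and 1.40 (SE 1.45) at 3 months. Without the third 3-month control library, in which Flt1 was listed at 0, the 3-month difference was 0.24.

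Tek encodes Tie2, the receptor of angiopoietins (ENSMUSG00000006386, chromosome 4, 94739289 to 94874976, plus strand, 4 transcripts). It was listed at 0 in all 6 libraries of 10-month mice. At 3 months it was at 0, 1.06 and 0.603 FPKM in libraries labelled TAU58/2 and at 2.00, 0 and 0 FPKM in the controls. Only 3 of the 12 libraries therefore held any Tek signal, and no fold is given against groups listed at 0. Other genes of the same signalling systems were also listed at 0 in all 12 libraries, among them Kdr (VEGF receptor 2), the angiopoietin genes Angpt1 and Angpt2, the lymphatic VEGF receptor gene Flt4 and the endothelial phosphatase gene Ptprb. Tie1, the orphan relative of Tie2, was above 0 in 2 libraries, at 0.223 and 0.635 FPKM. The ligand gene Vegfa was detected throughout, at 3.27 to 7.81 FPKM.

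Slc2a1 encodes GLUT1, which carries glucose across the barrier and is also made by astrocytes (ENSMUSG00000028645, chromosome 4, 119108711 to 119137983, plus strand, 5 transcripts). At 10 months it was at 30.3, 13.3 and 29.2 FPKM in libraries labelled TAU58/2 and at 15.1, 32.2 and 31.7 FPKM in the controls. Its 3-month values were 14.9, 13.7 and 12.2 FPKM in libraries labelled TAU58/2 and at 12.0, 10.6 and 29.9 FPKM in the controls. The values formed a lower run of 7 libraries up to 15.1 FPKM and an upper run of 5 from 29.2 FPKM, and both genotypes were found in each. The log2 difference between genotypes was -0.13 (SE 0.47, 95% interval -1.17 to 0.91) at 10 months and -0.20 (SE 0.47, interval -1.24 to 0.84) at 3 months.

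Mfsd2a encodes a transporter of lysophosphatidylcholine that brings docosahexaenoic acid into the brain and restrains vesicle traffic across the endothelium (ENSMUSG00000028655, chromosome 4, 122946850 to 122961188, minus strand, 4 transcripts). It was at 8.78, 6.73 and 8.85 FPKM in the 10-month libraries labelled TAU58/2 and at 7.69, 4.68 and 5.08 FPKM in the controls. In 3-month mice it was at 9.82, 6.47 and 5.66 FPKM in libraries labelled TAU58/2 and at 8.59, 4.97 and 9.08 FPKM in the controls. Mfsd2a had the smallest spread of the 8 tested genes, and the genotypes overlapped at both ages. The log2 difference was 0.50 (SE 0.32, 95% interval -0.21 to 1.20, limma adjusted p = 0.969) at 10 months and -0.04 (SE 0.32, interval -0.74 to 0.67) at 3 months. An increase of Mfsd2a by more than 1.20 on the log2 scale at 10 months lies outside that interval.

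Abcb1a encodes P-glycoprotein, which pumps drugs and other lipophilic molecules back into the blood (ENSMUSG00000040584, chromosome 5, 8660077 to 8748575, plus strand, 4 transcripts). In the 10-month libraries labelled TAU58/2 it was at 0.522, 0.355 and 0.0918 FPKM, and in the controls at 1.97, 1.59 and 1.88 FPKM. Every library labelled TAU58/2 was thus below every control, which was true of 1 of the 8 tested genes at this age. Over all tested genes, 8.26% had groups that did not overlap in either direction. Abcb1a entered the test only through its mean in the 10-month controls, where it was high, so its entry and this separation rest on the same values. The log2 difference was -2.33 (SE 1.20, 95% interval -5.02 to 0.35, unadjusted limma p = 0.0813, adjusted p = 0.969), and the two-sided exact permutation test gave p = 0.1, the smallest that 3 against 3 allows. The authors' deposited table lists a log2 fold change of -1.03 with p = 0.00145 and a q-value of 0.577. At 3 months Abcb1a was at 0.197, 0.247 and 1.84 FPKM in libraries labelled TAU58/2 and at 0.213, 0 and 2.74 FPKM in the controls. Each 3-month group had 1 high library and 2 low ones, and the log2 difference was 0.39 (SE 1.20).

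Across all 12 libraries no Abcb1a value lay between 0.522 and 1.59 FPKM: 5 libraries were above, namely the 3 controls of 10 months and 1 library of each 3-month group. A gap at least as wide on the log2 scale was present in 38.2% of all tested genes. The interaction of age and genotype for Abcb1a had a log2 value of -2.72 (SE 1.70, limma adjusted p = 0.987), so the 2 ages were not shown to differ. The level of the close paralog Abcb1b did not reach the filter, and reads that both genes share could be assigned to either.

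Slco1a4 encodes Oatp1a4, an organic anion transporter of the barrier (ENSMUSG00000030237, chromosome 6, 141805440 to 141856199, minus strand, 4 transcripts). It was at 0.0652, 0.0521 and 0.0230 FPKM in the 10-month libraries labelled TAU58/2 and at 0.0396, 0.0293 and 0.0372 FPKM in the controls. The 3-month values were 0.0158, 0.0245 and 0.00704 FPKM in libraries labelled TAU58/2 and at 0.0377, 0.0405 and 0.107 FPKM in the controls. The 3-month groups did not overlap, as was the case for 7.98% of all tested genes, but no value exceeded 0.107 FPKM. With the filter on low values removed, the 3-month log2 difference was -0.46 (SE 0.21, limma adjusted p = 1).

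Ly6c1 encodes a small membrane-anchored protein of the Ly6 family that is abundant on mouse brain endothelium and on some leukocytes (ENSMUSG00000079018, chromosome 15, 75044018 to 75048830, minus strand, 7 transcripts). At 10 months it was at 13.4, 8.87 and 15.6 FPKM in libraries labelled TAU58/2 and at 1.19, 3.95 and 9.89 FPKM in the controls. At 3 months it was at 16.7, 2.67 and 13.9 FPKM in libraries labelled TAU58/2 and at 13.0, 4.19 and 9.81 FPKM in the controls. At 10 months the highest control lay above the lowest library labelled TAU58/2, so the groups overlapped. The 10-month log2 difference was 1.73 (SE 0.84, 95% interval -0.15 to 3.60, unadjusted limma p = 0.0670, adjusted p = 0.969), the lowest unadjusted p of the 8 genes at that age, and the exact permutation p was 0.2. Without the first control library it was 0.96, and without the library that held pituitary transcripts it was 1.67. At 3 months the log2 difference was 0.08 (SE 0.84). Shared reads with the paralog Ly6c2, which stayed below the filter, leave the level of Ly6c1 uncertain.

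**Figure D2:**
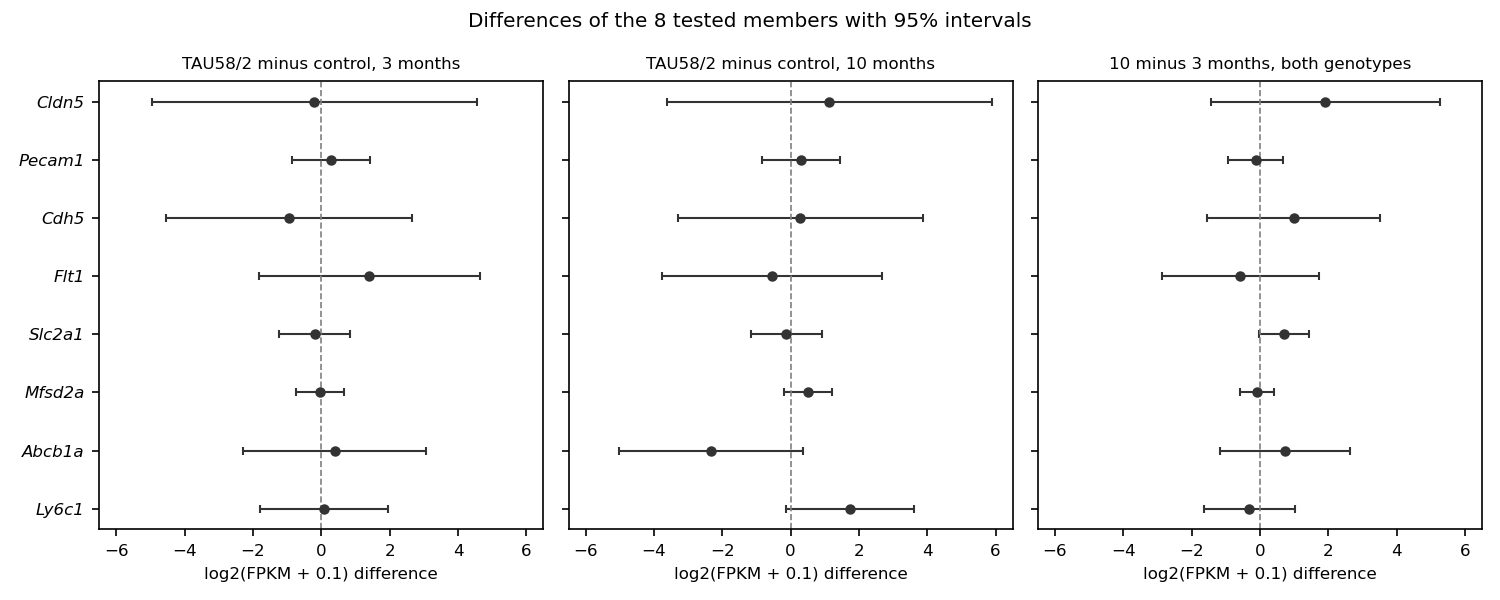
Differences on the log2(FPKM + 0.1) scale (horizontal axis) of the 8 tested endothelial genes with 95% intervals from limma: labelled TAU58/2 minus control at 3 months (left) and 10 months (middle), and 10 minus 3 months over both genotypes (right). All 24 intervals include 0; those of Mfsd2a, Slc2a1 and Pecam1 are the narrowest and that of Cldn5 is the widest.

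Age was compared over both genotypes, 10 minus 3 months, with 6 libraries on each side. The ages were deposited in separate tables, with FPKM scaled within each library. None of the 8 genes passed the threshold (0 of 8, against 0.0813% of all tested genes), and none was below an unadjusted p of 0.05, while 433 of all tested genes were. The split was 4 higher and 4 lower. Slc2a1 came nearest, with a log2 difference of 0.70 (SE 0.33, 95% interval -0.031 to 1.44, limma adjusted p = 0.935). Of the 5 libraries in the upper run of Slc2a1, 4 were of 10-month mice, 2 of each genotype, and 1 was a 3-month control. Mfsd2a differed by -0.09 (SE 0.22, interval -0.59 to 0.41) between ages and Pecam1 by -0.13 (SE 0.36). Cldn5 had a log2 difference of 1.92 (SE 1.51), with both of its zeros at 3 months. That value was 0.78 without the first 3-month control library, and 0.27 with the 3 near-zero values set to missing. Ly6c1 had a log2 difference of -0.31 (SE 0.59). The genotype difference averaged over both ages gave 0 of 8 calls (0.0508% of all tested genes), with adjusted p values from 0.975 to 0.996 and a lowest unadjusted p of 0.160. The interaction of age and genotype also gave 0 of 8 calls (0.0508% of all tested genes), with a lowest unadjusted p of 0.141.

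The 8 tested genes differed widely in their spread within groups. The pooled SD within groups on the log2(FPKM + 0.1) scale was 0.38 for Mfsd2a, 0.53 for Pecam1 and 0.62 for Slc2a1. It was 1.13 for Ly6c1, 1.51 for Abcb1a, 1.87 for Flt1, 2.07 for Cdh5 and 2.91 for Cldn5. The median over all tested genes was 0.73, with an interquartile range of 0.38 to 1.55. Of the 8 genes, 3 were thus below the median spread, and Flt1, Cdh5 and Cldn5 were above the upper quartile. No gap in the ordered values of Mfsd2a was wider than 0.19 on the log2 scale, and 92.9% of tested genes had a wider or equal one. The widest gap of Slc2a1 was 0.95, as was the median over all tested genes. That of Cldn5 was 3.50, reached by 12.9% of tested genes, and lay between its 2 libraries at 0 and the next at 1.03 FPKM.

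**Figure D3:**
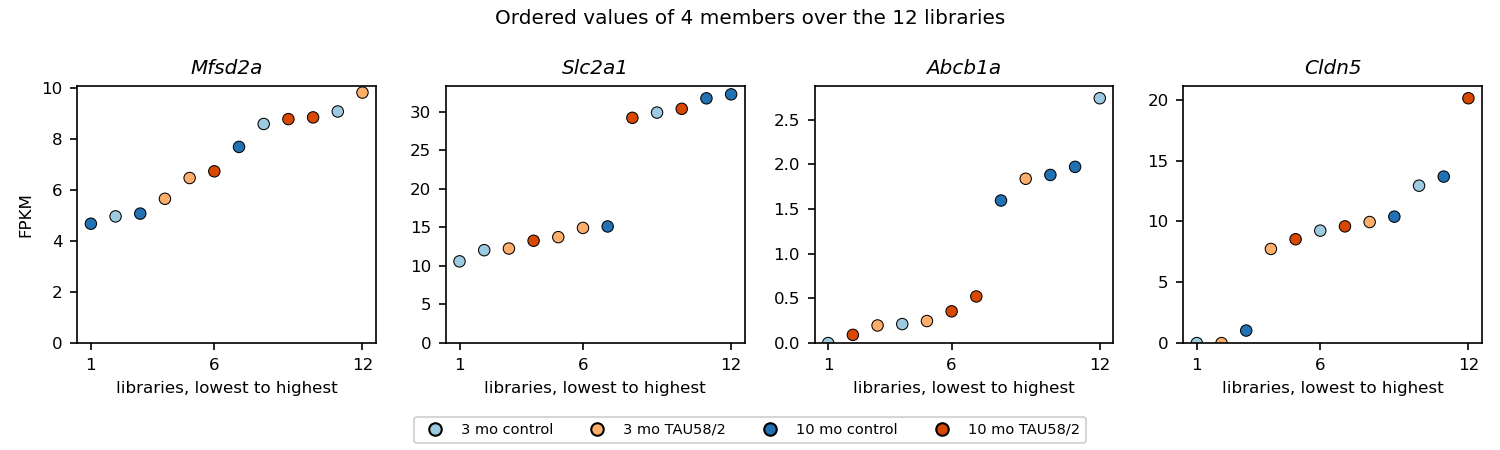
FPKM (vertical axis, starting at 0) of Mfsd2a, Slc2a1, Abcb1a and Cldn5 in the 12 libraries, ordered from lowest to highest separately for each gene and coloured by group. Mfsd2a rises without a break, whereas Slc2a1 has no value between 15.1 and 29.2 FPKM, Abcb1a none between 0.522 and 1.59 FPKM and Cldn5 none between 1.03 and 7.74 FPKM.

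The genes did not rise and fall together from library to library. Over the 28 pairs of the 8 tested genes, Pearson's r across the 12 libraries ran from -0.47 to 0.58 with a median of -0.07, and 12 pairs were positive. The highest was between Slc2a1 and Cdh5 and the lowest between Flt1 and Mfsd2a. Within groups the median was 0.05. These are descriptions over libraries that also differ in group. The first library of each 3-month group, in which Cldn5 was listed at 0, held 13.0 and 16.7 FPKM of Ly6c1, 8.59 and 9.82 FPKM of Mfsd2a and 1.81 and 0.976 FPKM of Flt1 (control and labelled TAU58/2). Cdh5 was listed at 0 in both of these libraries, and Tek was at 2.00 FPKM in the control and at 0 in the other. Some endothelial genes were thus above 0 and others listed at 0 where Cldn5 was listed at 0. A listed 0 cannot be told apart from a failed estimate. The summed level of the 10 genes was 40.4 to 75.8 FPKM in the 10-month libraries labelled TAU58/2 and 40.6 to 57.5 in their controls, and 37.9 to 44.7 against 35.5 to 62.1 at 3 months. These sums overlapped at both ages. Among 4530 genes averaging 5 FPKM or more, those whose pattern over the 12 libraries was most like the mean standardized level of the 8 genes were Vamp7 (r = 0.79), Inpp5a (0.78), Acadl (0.78), Txnip (0.77) and Rilpl1 (0.75). Their Spearman coefficients ran from 0.60 (Inpp5a) to 0.87 (Vamp7). These are the highest of 4530 correlations over 12 libraries, and such a search can return high values by itself. The 8 genes did not vary together, so their mean is not a shared pattern.

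Further genes of endothelium and barrier, 93 in 6 lists, included some, such as Ctnnb1 and Bsg, that other cells also express. Of the 93, 15 were listed at 0 in all 12 libraries and 47 could be tested. None passed at either age: 19 were higher and 28 lower at 10 months, with a median log2 difference of -0.14, and 25 were higher and 22 lower at 3 months, with a median of 0.04. At an unadjusted limma p under 0.05, 2 of the 47 were found at each age. Of all 9846 tested genes, 433 were at 10 months and 334 at 3 months. The groups did not overlap for 10.6% of the 47 at 10 months and for 4.26% at 3 months. Both shares can be read against 8.26% and 7.98% of all tested genes.

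Junction partners of claudin-5 were low. Ocln, which encodes the tight junction protein occludin, was listed at 0 in 6 libraries and reached at most 0.688 FPKM. Tjp1, which encodes the scaffold ZO-1, ranged from 0 to 2.59 FPKM and differed by -0.24 (SE 1.55) at 10 months and -1.73 (SE 1.55) at 3 months. Of the 11 junction genes 5 could be tested, and 4 of these were lower at 10 months and 3 at 3 months, none past the threshold. The most abundant were Ctnnd1, which encodes p120-catenin, the claudin gene Cldn12 and Esam, which encodes an endothelial adhesion molecule, with 10-month log2 differences of -0.91 (SE 0.63), -1.59 (SE 1.76) and -0.92 (SE 0.76). At 3 months they were 0.71 (SE 0.63), 1.75 (SE 1.76) and -0.40 (SE 0.76), so the point estimates of Ctnnd1 and Cldn12 changed sign. Their interactions of age and genotype were -1.62 (SE 0.89) and -3.35 (SE 2.49), each with a limma adjusted p of 0.987. The ages were thus not shown to differ.

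The most abundant of the further barrier transporters were Slc3a2, Slc7a5 and Tfrc. Slc3a2 and Slc7a5, whose products together form the large neutral amino acid transporter LAT1, differed at 10 months by -0.14 (SE 0.18) and 0.05 (SE 0.55). Slc3a2 stayed between 22.4 and 32.3 FPKM in all 12 libraries. Tfrc, which encodes the transferrin receptor, differed by -0.65 (SE 0.50) at 10 months and 0.04 (SE 0.50) at 3 months. Of the 9 transporters tested, 4 were higher and 5 lower at each age, and none passed.

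Among receptors and ligands, 5 of 14 genes were listed at 0 throughout and 4 were tested. Vegfb was at 12.4 to 22.3 FPKM in the 10-month libraries labelled TAU58/2 and at 0.656, 15.5 and 14.7 FPKM in the controls. Its log2 difference was 1.55 (SE 1.51) at 10 months and 2.40 (SE 1.51) at 3 months. Vegfa differed by -0.41 (SE 0.32) and 0.55 (SE 0.32), and Eng, the co-receptor endoglin, by -0.02 (SE 0.39) and 0.27 (SE 0.39). None of the 4 passed. In the list of Wnt signalling and endothelial transcription factors, 2 of 7 tested genes were higher at 10 months and 5 at 3 months, without a call. Ctnnb1, which encodes beta-catenin and is expressed by most cells, differed by 0.23 (SE 0.22) and 0.04 (SE 0.22). The Norrin gene Ndp and the endothelial transcription factor gene Sox18 were at 10-month log2 differences of -0.20 (SE 0.32) and -0.55 (SE 0.40).

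In the list of other endothelial genes, 7 of 17 tested were higher at 10 months and 8 at 3 months, and none passed. Bsg, which encodes basigin and is also made by neurons and glia, was at 104, 128 and 122 FPKM in the 10-month libraries labelled TAU58/2 and at 189, 185 and 143 FPKM in the controls. The groups did not overlap, and the log2 difference was -0.53 (SE 0.24, limma adjusted p = 0.969). Sparc, a matrix-associated glycoprotein gene of endothelium and glia, was at 35.2, 61.9 and 59.1 FPKM against 30.9, 19.3 and 33.0 FPKM, without overlap, with a log2 difference of 0.90 (SE 0.41, limma adjusted p = 0.969). At 3 months Bsg and Sparc differed by -0.09 (SE 0.24) and -0.40 (SE 0.41). Itm2a, an endothelial membrane protein gene, was at 15.1 to 24.2 FPKM at 10 months and at 20.6 to 26.9 FPKM at 3 months. Its log2 difference by age was -0.49 (SE 0.15, limma adjusted p = 0.935).

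Markers of leaky or inflamed endothelium gave 4 higher and 1 lower of 5 tested at 10 months and 2 and 3 at 3 months, with no call. Plvap, which encodes the diaphragm protein of fenestrated vessels and is nearly absent from barrier endothelium, was listed at 0 in 10 libraries. It was at 9.63 FPKM in the library that held pituitary transcripts and at 0.790 FPKM in the first 3-month library labelled TAU58/2. Plvap is 1 of the 4 higher at 10 months and reached the filter only through the library that held pituitary transcripts. The pituitary has fenestrated vessels, and the part of such tissue in the endothelial values of that library was not tested. Without that library the 10-month log2 difference of Pecam1 was 0.072 in place of 0.30 and that of Cldn5 was 1.27 in place of 1.12, and Cdh5 fell below the filter. The caveolar genes Cavin1, Cav2 and Cav1 differed at 10 months by 0.14 (SE 0.23), 0.03 (SE 1.06) and 0.02 (SE 0.38).

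Genes of the cells around the endothelium were followed to see whether the vessel wall as a whole moved. The pericyte genes Vtn and Rgs5 were at 18.4 to 25.2 FPKM and 14.2 to 21.1 FPKM over all libraries, with 10-month log2 differences of -0.10 (SE 0.16) and -0.02 (SE 0.17). Pdgfb, the endothelial ligand that recruits pericytes, differed by -0.45 (SE 0.78). Its receptor gene Pdgfrb was listed at 0 in 10 libraries and was at 0.600 and 2.84 FPKM in 2 of the 10-month libraries labelled TAU58/2. Of 8 tested pericyte genes 1, Pdgfrb, was higher and 6 lower at 10 months, without a call. The remaining gene, Cspg4, was listed at 0 in all 10-month libraries. Pdgfrb reached the filter only through the 10-month libraries labelled TAU58/2, so its entry and its direction rest on the same values. Its 0.600 FPKM was in the library that held pituitary transcripts. Of 4 tested smooth muscle genes 3 were higher and 1 lower at 10 months, and 2 were higher and 2 lower at 3 months, without a call. Myl9, Tagln and Acta2 differed by 0.25 (SE 0.39), 0.08 (SE 0.48) and -0.30 (SE 1.16) at 10 months. The fourth, the tropomyosin gene Tpm2, was named after its values were seen: it was at 1.31, 0.920 and 1.70 FPKM in 10-month libraries labelled TAU58/2 and at 0.642, 0.227 and 0.160 FPKM in the controls. At 3 months Tpm2 was at 1.11, 0.701 and 0.911 FPKM against 0.543, 0.311 and 0.384 FPKM. Its groups did not overlap at either age, with log2 differences of 1.79 (SE 0.60, limma adjusted p = 0.969) and 0.98 (SE 0.60, limma adjusted p = 1). Tpm2 reached a mean of 1 FPKM only in the 10-month libraries labelled TAU58/2, so its entry depended on a group in which it was high. Groups did not overlap for 8.26% of all tested genes at 10 months and for 7.98% at 3 months. Of 11 basement membrane genes 3 were tested: Agrn (agrin), Col4a2 and Col4a1 (type IV collagen chains), with 10-month log2 differences of 0.10 (SE 0.81), -4.04 (SE 1.61, limma adjusted p = 0.969) and 0.01 (SE 1.82). Col4a2 was at 0 to 0.0210 FPKM in the 10-month libraries labelled TAU58/2 and at 0.132, 4.57 and 5.65 FPKM in the controls, and it did not pass the adjusted threshold.

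**Figure D4:**
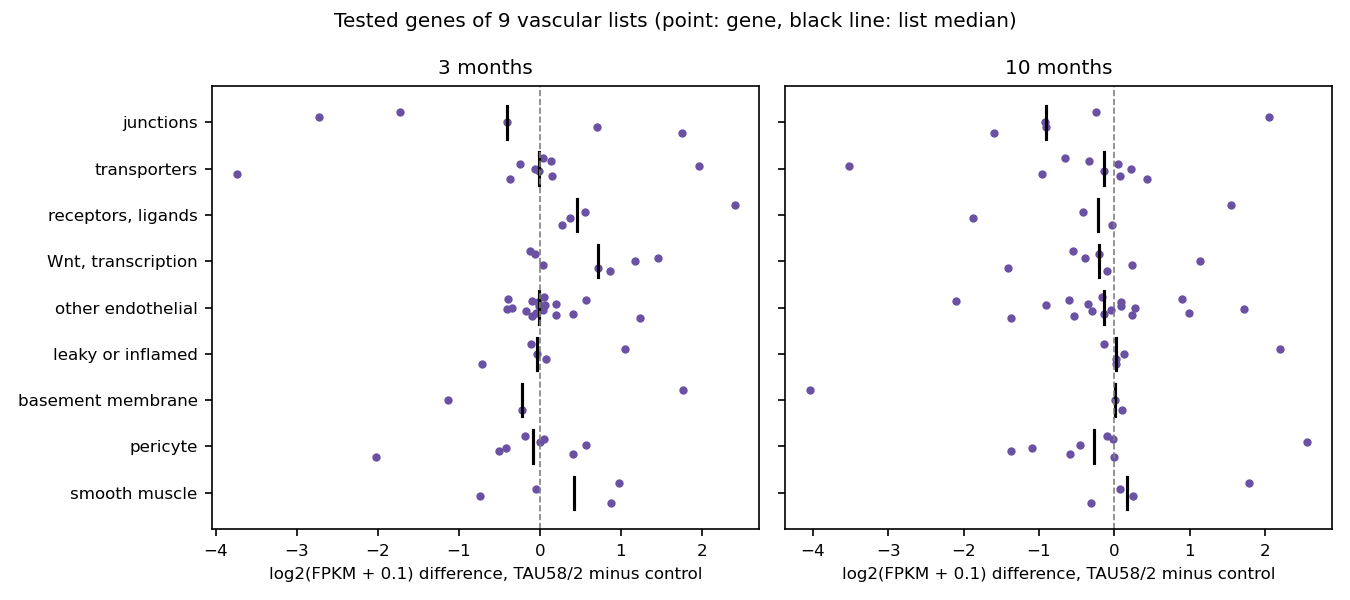
Log2(FPKM + 0.1) differences, labelled TAU58/2 minus control (horizontal axis), of the 62 tested genes of 9 vascular gene lists at 3 months (left) and 10 months (right); each point is 1 gene and each black line the median of its list. The list medians lie between -0.91 and 0.72, and no gene passed the threshold.

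Summed levels of the 17 lists, those of other cell types included, were set beside these values. Over single genes, groups did not overlap for 7.98% of all tested genes at 3 months and for 8.26% at 10 months. At 3 months 5 of the 17 sums did not overlap between the labels, 2 of them higher and 3 lower under the TAU58/2 label. Those higher were the 5 blood genes, mainly haemoglobins, at 35.4 to 142 FPKM against 14.9 to 25.1 FPKM, and the neuron list, at 1142 to 1202 FPKM against 776 to 883 FPKM. The neuron sums overlapped once Thy1 was left out, at 733 to 785 FPKM against 636 to 778 FPKM over the other 7 genes. Those lower were the lists of astrocyte endfoot, fibroblast and meninges, and leaky or inflamed endothelium. Astrocyte endfoot genes were at 113 to 138 FPKM against 143 to 185 FPKM. Among them Kcnj10 was widely spread, at 0.588, 28.3 and 0.978 FPKM under the TAU58/2 label and at 31.5, 21.3 and 24.9 FPKM in the controls. The separation of the endfoot sums depended on Kcnj10, since the sums of the other genes in the list overlapped. Gja1, also in this list, was widely spread within both groups. The endfoot sums therefore do not show a shift of the list as a whole. Fibroblast and meninges genes were at 5.75 to 7.93 FPKM against 9.83 to 11.2 FPKM. Leaky or inflamed endothelium was at 8.76 to 10.20 FPKM against 10.25 to 11.04 FPKM. At 10 months 2 sums did not overlap, both higher under the TAU58/2 label: perivascular macrophage genes, at 0.475 to 0.938 FPKM against 0.329 to 0.447 FPKM, and choroid plexus genes, at 76.6 to 499 FPKM against 47.3 to 74.0 FPKM. None of the 5 macrophage genes reached the filter. Pf4 was at 0.938, 0.711 and 0.475 FPKM under the TAU58/2 label and at 0.304, 0.421 and 0.443 FPKM in the controls. Cd163 and Lyve1 were listed at 0 in all 12 libraries. Of the 6 choroid plexus genes only Ttr and Enpp2, 2 in all, were tested. At 10 months Ttr overlapped between the labels and Enpp2 did not. The separation of the choroid plexus sums depended on Enpp2, since the sums of the other genes in the list overlapped. The highest of these sums, 499 FPKM, was in the library that held pituitary transcripts. The part of these lists in the endothelial values was not tested.

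The 250 bases before the start of each gene were read from RefSeq (GRCm38.p6), where 8 of the 10 genes had 9 promoters. The starts are RefSeq's own: that of Abcb1a lies upstream of the GENCODE start given above, and the second window of Ly6c1 overlaps the GENCODE gene. 4 motifs were searched on both strands: ACAGGAA, a core shared by FOX and ETS sites, CCGGAAGT, an ETS core, AACAAT, a SOX core, and TATAAA, the TATA box. The motifs ACAGGAA and CCGGAAGT were in 0 of the 9, and in 7.2% and 2.88% of 32851 promoters of the same length. The motif AACAAT was in those of Slco1a4 and Tek (9.42% of all promoters) and TATAAA in those of Flt1 and Ly6c1 (12.4% of all promoters). The share of G and C was 61.6% for Mfsd2a, 66.4% for Slc2a1 and 70.4% for Flt1, against 39.2% for Slco1a4 and 51.2% for Tek and a median of 52.4% over all. The promoter of Mfsd2a, the tested gene with the smallest spread, is shown with those of the 2 genes that stayed below the filter, each on its gene's strand. Capitals mark AACAAT or its reverse complement, which is the form found in Tek, 63 bases before the start. Mfsd2a held none of the 4 motifs. The windows are chr4:122961189-122961438 (minus strand), chr6:141856221-141856470 (minus strand) and chr4:94739039-94739288 (plus strand). A match describes these letters only.
Mfsd2a: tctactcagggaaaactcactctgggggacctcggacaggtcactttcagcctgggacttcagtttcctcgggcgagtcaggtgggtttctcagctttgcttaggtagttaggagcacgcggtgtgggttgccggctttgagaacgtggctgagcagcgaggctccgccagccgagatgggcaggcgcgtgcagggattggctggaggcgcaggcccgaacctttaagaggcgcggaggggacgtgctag
Slco1a4: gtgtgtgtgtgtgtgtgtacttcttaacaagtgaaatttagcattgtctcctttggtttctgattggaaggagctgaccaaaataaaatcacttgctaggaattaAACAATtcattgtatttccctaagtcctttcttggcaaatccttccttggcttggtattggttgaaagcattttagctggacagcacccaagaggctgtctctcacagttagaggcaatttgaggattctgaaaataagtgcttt
Tek: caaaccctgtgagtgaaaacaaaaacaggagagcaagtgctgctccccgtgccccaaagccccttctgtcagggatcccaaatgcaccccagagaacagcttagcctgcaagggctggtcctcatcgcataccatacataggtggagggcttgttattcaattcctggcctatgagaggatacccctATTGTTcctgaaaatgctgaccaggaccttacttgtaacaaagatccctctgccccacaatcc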

How the data were processed

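Cortex RNA of 12 mice, 3 per age and genotype, was sequenced from stranded total RNA libraries depleted of ribosomal RNA. The genome build was mm10 (GRCm38) and the tools HISAT2 2.0.4, StringTie 1.3.0, SAMtools 0.0.19 and R 3.4.2, per the submitters' processing notes. The deposited tables, 1 per age, give FPKM per gene and library together with the authors' comparison: a fold ratio, its log2 value, a p-value and a q-value. No source used here gives the filters or the test behind those comparison columns. FPKM files hold no read counts, so depth per library is unknown; summed FPKM was 125933 to 158077 and 12828 to 13914 genes were above 0.

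Libraries were matched to columns by the sample number in the labels. Values were analysed as log2(FPKM + 0.1) with limma 3.58.1 (R 4.3.3, eBayes with trend and robust options), all 12 libraries in 1 fit, for the 9846 genes whose mean reached 1 FPKM in any group, with Benjamini-Hochberg adjustment over those genes. Exact permutation tests were two-sided, of 3 against 3 libraries. The fit was tested on simulated data. The alternatives tried are pseudocounts, filters, scalings, a replicate block, treatment of near-zero values, each age alone and leaving out each library.

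All 10 genes are named, with the 3 most abundant tested genes of each vascular list, further junction, receptor and tissue markers fixed by name, and the 5 genes most like the set. Flt4, Ptprb and Tpm2 were named after their values were seen. The members and lists were chosen with earlier results of these data known. Locations are from GENCODE M21 and promoters from RefSeq, both of GRCm38. Python 3.11.15, pandas 2.3.3 and matplotlib 3.10.9 were used for tables and figures.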

Additional observations from a re-analysis of the deposited data

How the results depend on the processing

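No endothelial gene passed the threshold under any alternative: all 829 recomputed member values had an adjusted p of at least 0.789. Counts over all tested genes moved. With no filter beyond 3 libraries above 0 they were 2 (10 months), 9 (3 months), 9 (interaction) and 9 (genotype averaged over ages). With a filter of 5 FPKM, which tests only 4 of the 10 genes, they were 0, 2, 1 and 2, and 2 for age. The replicate block gave 0 at 10 months, 1 for the interaction, 1 for the averaged genotype difference and 2 for age. A pseudocount of 0.01 gave 2 for the interaction and 5 for age. Values under an eighth of a gene's median set to missing gave 0 at 10 months, 3 for the interaction and 5 for age, and each age fitted alone gave 0 at 10 months and 14 at 3 months. Leaving out 1 library at a time gave 0 to 8 calls at 10 months, 4 to 12 at 3 months, 2 to 11 for the interaction, 1 to 10 for the averaged difference and 2 to 14 for age. The cause of these shifts was not tested.

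Replicate numbers do not pair the samples: deviations of same-numbered libraries correlated at -0.12 to 0.03, and the replicate block changed no call of an endothelial gene. With low values set to missing, the direction turned for Cldn5 at 10 months (-0.013, 9 libraries left), Abcb1a (-0.69, 11 left) and Cdh5 (0.15, 7 left) at 3 months, and Flt1 (0.062, 9 left) and Ly6c1 (0.072, 11 left) by age. Abcb1a at 3 months was also -0.033 with a pseudocount of 1. Leaving out single libraries moved the 10-month differences across 0 for Cldn5 (-0.013 to 1.79), Flt1 (-1.89 to 0.54), Slc2a1 (-0.49 to 0.26) and Cdh5 (-0.90 to 1.61). At 3 months it did so for Cldn5 (-2.47 to 1.95), Ly6c1 (-0.40 to 0.90), Abcb1a (-0.69 to 1.72), Slc2a1 (-0.48 to 0.27), Mfsd2a (-0.31 to 0.13) and Cdh5 (-1.99 to 0.019). By age it did so for Flt1 (-1.15 to 0.098), Pecam1 (-0.31 to 0.064), Ly6c1 (-0.72 to 0.072) and Mfsd2a (-0.23 to 0.026). At 10 months Abcb1a stayed lower, at -2.75 to -1.10, in its 21 alternatives, and Ly6c1 stayed higher, at 0.96 to 2.44, in its 22. The 10-month groups of Abcb1a did not overlap, so leaving out a library or changing the pseudocount could not turn its direction. Leaving out a 3-month library could not change a 10-month difference of either gene. These alternatives therefore did not test the direction. With 3 libraries a group and unknown depth, a value of 0 or near 0 cannot be told apart from a failed estimate.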
